A study of Mus musculus with 4 samples.

Results

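The genes examined here are the clustered histone genes, whose mouse symbols begin with Hist1h, Hist2h, Hist3h or Hist4h. Members were those with at least 20 UMIs (unique molecular identifiers, each counting 1 captured mRNA molecule) summed over the barcodes that passed the filters in the 4 libraries; 59 of the 67 such symbols passed, among 32372 gene features, and 46 reached 20 UMIs in each library. They comprise 6 H1, 15 H2A, 15 H2B, 11 H3 and 12 H4 genes. The study sorted CD11b+/CD45+ myeloid cells from the left brain hemisphere of 4-month-old female mice and profiled them with 10x Genomics 3′ v3.1 single-cell chemistry. Control libraries (2, labelled as biological replicates) came from APP/PS1 mice, which carry transgenes that cause amyloid plaques. The cKO libraries (2) came from APP/PS1:miR-155 cKO mice, in which the microRNA miR-155 is conditionally deleted in microglia; both groups thus carry APP/PS1, no mouse without it was sequenced in the samples used here, and the Cre driver and the deleted part of the gene are not given in the sources used here. The labels do not say how many animals made up a library.

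Histones package DNA: 2 copies each of H2A, H2B, H3 and H4 form the nucleosome core, and H1 binds the linker DNA. Cells make most histone mRNA while they replicate DNA, and these replication-dependent mRNAs end in a conserved stem-loop, bound by the protein SLBP, in place of a poly(A) tail. Some clustered genes also give polyadenylated mRNA from a signal farther downstream, which non-dividing cells can use. The 10x chemistry primes reverse transcription on poly(A), so the levels below are those of the polyadenylated, or internally primed, forms and not of all histone mRNA. Each UMI comes from 1 transcript end, so levels are compared between genes without a length scale.

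The stem-loop sequences of some members with a match are shown first. Those shown are nearly the same whether or not the gene was at least 8-fold higher in dividing cells. A match was found in 14 of the 24 members that were at least 8-fold higher in dividing cells, and 8 of these 24 have no annotated 3′ UTR. In 6 of the 24 the high change was fixed by how they became members, as described below. Of the 26 members with a smaller rise, 22 had a match and 2 have no annotated 3′ UTR. Capitals mark the 16-base stem-loop with 5 flanking bases on each side, read 5′ to 3′ from the GENCODE M21 transcripts (GRCm38, the same assembly as mm10).
Hist1h3b: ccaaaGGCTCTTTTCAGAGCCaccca
Hist1h3c: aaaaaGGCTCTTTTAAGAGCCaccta
Hist2h2ac: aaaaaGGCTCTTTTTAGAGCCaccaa
Hist1h1c: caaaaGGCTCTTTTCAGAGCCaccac
Hist4h4: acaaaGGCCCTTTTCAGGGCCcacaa
Hist1h2ac: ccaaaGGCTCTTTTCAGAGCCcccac
The first 3 are from genes at least 8-fold higher in dividing cells, and the last 3 from genes abundant outside division. In Hist1h3b (chr13:23752267-23752886, plus strand) the stem-loop begins at base 30 of a 3′ UTR annotated as 96 bases long. In Hist1h2ac (chr13:23681467-23683948, minus strand, 1 exon) it begins at base 33, and the annotated 3′ UTR runs on for 2010 bases beyond it. In Hist4h4 (chr6:136801553-136804415, minus strand) 2445 annotated bases follow it. Hist1h2bc (chr13:23684199-23692908, plus strand), the H2B gene that lies head to head with Hist1h2ac at a distance of 251 bases between starts, is annotated with 2 exons, a 3′ UTR of 742 bases and no match to the stem-loop pattern.

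The 250 bases before the start of Hist1h2ac, which reach the annotated start of Hist1h2bc, and those before the start of the strongest dividing-cell member, the linker histone gene Hist1h1b, are given as the regions from which these transcripts start (RefSeq, GRCm38.p6, both on the minus strand, read 5′ to 3′ along the gene). Capitals mark matches on either strand to 3 motifs known from histone promoters, the octamer ATTTGCAT, CCAAT and TATAAA.
Hist1h2ac, chr13:23683960-23684209: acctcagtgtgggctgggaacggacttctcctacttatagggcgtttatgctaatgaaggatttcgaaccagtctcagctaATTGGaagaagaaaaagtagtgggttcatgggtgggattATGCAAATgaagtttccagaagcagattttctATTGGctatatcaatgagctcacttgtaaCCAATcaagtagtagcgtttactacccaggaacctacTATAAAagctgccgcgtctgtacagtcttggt
Hist1h1b, chr13:21780626-21780875: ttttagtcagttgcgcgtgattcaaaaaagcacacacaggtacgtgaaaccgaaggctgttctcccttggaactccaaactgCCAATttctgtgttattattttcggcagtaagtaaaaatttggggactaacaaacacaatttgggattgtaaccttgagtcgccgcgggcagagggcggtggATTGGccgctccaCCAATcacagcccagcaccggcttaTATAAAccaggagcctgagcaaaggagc
The window of Hist1h2ac holds all 3 motifs, and that of Hist1h1b holds CCAAT and TATAAA. RefSeq windows were matched for 53 of the 59 members. The octamer occurred in 9 of them (17.0%) against 1.61% of 27025 promoters of the same length, CCAAT in 43 (81.1% against 34.5%) and TATAAA in 24 (45.3%, against 3504 of all 27025). Members with an octamer include Hist1h2bm, at least 8-fold higher in dividing cells, and Hist1h2ac, with a smaller rise there. Windows of head-to-head members, such as Hist1h2ac and Hist1h2bc, can overlap. The same motif copy can then count for both, so the members are not all separate promoters. A match is a description of the letters only.

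Between 2852 and 4351 barcodes per library passed the filters (13940 in all, at least 1000 UMIs and 500 genes, at most 10% mitochondrial UMIs), with medians of 6158 to 7236 UMIs. After removal of 401 likely doublets, 13539 cells remained, of which 12508 fell in clusters called microglia-like: all 16 microglial markers were detected in every library, with summed levels of 29453 to 33704 CPM (counts per 1000000 UMIs). Markers of other cells in the microglia-like sums were low: the 9 macrophage markers of the brain borders summed to 102 to 153 CPM with Lyve1 and Cd163 at 0 in every library, the 8 monocyte markers to 15.5 to 20.9 CPM, and the 8 neutrophil markers to 203 to 239 CPM, nearly all of it Csf3r, with Retnlg, Ly6g and Mmp9 at 0. A further 1009 cells lay in 2 unnamed clusters and 22 in a choroid plexus-like one; none of these entered the comparisons. In the tested comparisons below, CPM are also scaled by the normalization factors of each test. The same gene in the same cells can therefore have slightly different CPM in different comparisons. Libraries shared 1 to 4 barcodes per pair. The host transcript of miR-155, Mir155hg, had 7 and 10 UMIs in the Control libraries and 1 and 1 in the cKO libraries; whether the deletion covers the counted end is not given. The library labelled Control replicate 1 had Xist, the X-inactivation RNA of female cells, at 0.402 CPM against 1693 to 1849 CPM in the other 3, which goes against its female label, so results that rest on it are also given without it. The deposited name of cKO replicate 2 carries a run code that the other 3 do not share.

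Dividing cells were defined without any histone gene, as microglia-like cells with at least 2 UMIs of Top2a and Mki67 together, which encode a topoisomerase and a nuclear protein of proliferating cells. There were 211 (78 and 37 in Control replicates 1 and 2, 66 and 30 in cKO replicates 1 and 2), against 12188 cells with none; 36 of the 211 had exactly 2 such UMIs, and 109 cells with exactly 1 were in neither group. Cycling cells held 2.68% of the UMIs of both groups. Cycling and non-cycling sums were compared within libraries by edgeR's quasi-likelihood test with the library as a block and Benjamini-Hochberg adjustment over 13035 genes. The test called 50 of the 58 members tested higher in cycling cells at an adjusted p under 0.05, where 13.7% of all genes tested were called higher, and 1 lower, where 12.9% were called lower. The members' median log2 change was 2.33 against -0.06 for all genes tested. In 24 members the rise was at least 8-fold, as it was in 2.39% of all genes. These are called cycle-bound below, and the 26 with a smaller rise cycle-raised. Both names refer to the size of the rise only. Cycling cells held 19.9% to 98.0% of the UMIs of a cycle-bound member (median 33.3%). For a cycle-raised member they held 4.31% to 17.7% (median 8.08%). The median cycle-bound member thus had most of its UMIs in non-cycling cells. Hist1h3b, Hist1h3g, Hist1h1t, Hist1h2ag, Hist1h2bp and Hist1h4k had under 20 UMIs in non-cycling cells and so reached the member minimum through other cells, which fixes their high change; of the other 52 members tested, 44 were higher and 18 at least 8-fold so. Hist1h4n, with no UMI in any cycling cell, did not pass the filter on low counts. Cycling cells were deeper, with median UMIs of 10993 to 15579 per cell against 6177 to 7303. With every cell thinned to 2000 UMIs, 27 of the 44 members still testable were called higher.

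**Figure D1:**
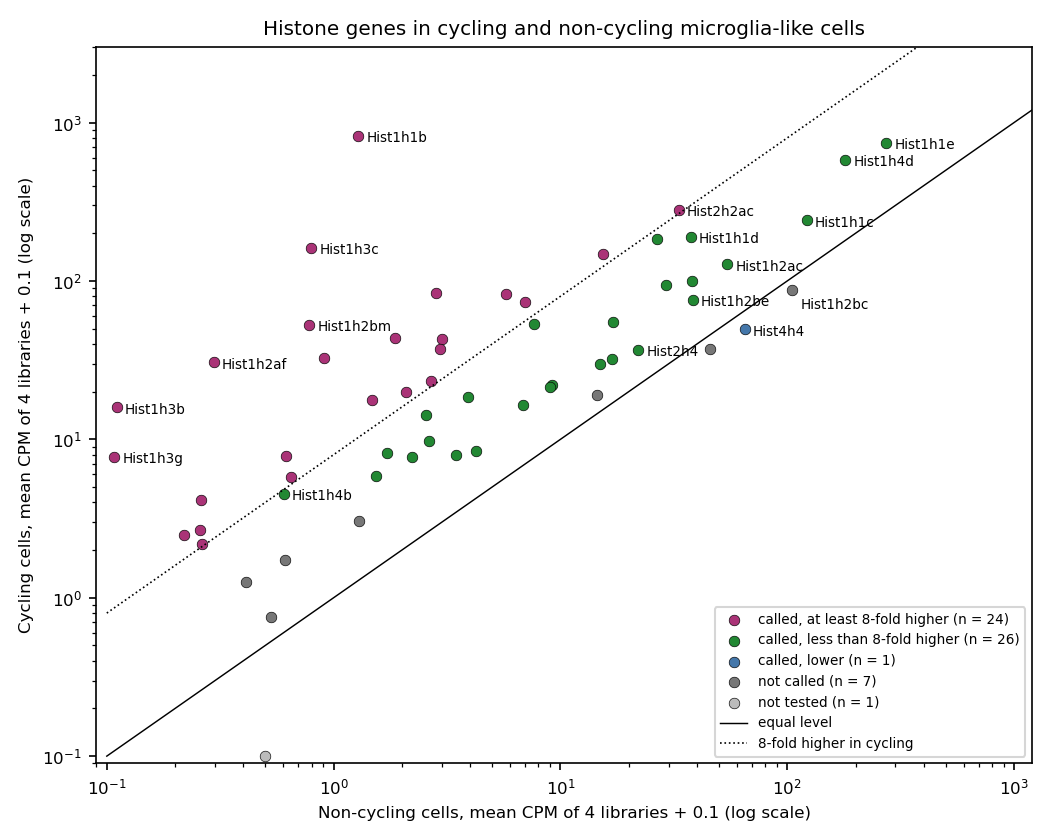
Mean CPM of each histone gene over the 4 libraries in non-cycling (x axis) and cycling (y axis) microglia-like cells, both on a log scale with 0.1 added; colour gives the class. The 24 cycle-bound genes lie above the 8-fold line. Hist1h4b, whose fitted change is just under 8-fold, lies just under that line as drawn with 0.1 added. Hist1h2bc, Hist3h2a and Hist4h4 lie under the line of equal level.

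Of the 6 linker histone genes 3 were cycle-bound and 3 cycle-raised. Hist1h1b, which encodes H1.5, had 887 and 793 CPM in cycling cells of Control replicates 1 and 2 and 918 and 704 CPM in those of cKO replicates 1 and 2, against 1.10, 1.39, 0.923 and 1.30 CPM in non-cycling cells, a log2 change of 9.47 (SE 0.14). The lowest cycling value lay far above the highest non-cycling one. Hist1h1a was also cycle-bound (log2 change 3.90, SE 0.18), as was Hist1h1t, the testis-type H1 (4.19, SE 0.93), which reached only 2.58 CPM in cycling cells. The class of Hist1h1t follows from how it became a member, as said above. The other 3 linker genes were cycle-raised. Hist1h1e was the most abundant member outside the cycle, at 274, 308, 265 and 240 CPM, and rose to 876, 903, 791 and 405 CPM in cycling cells (log2 change 1.42, SE 0.10). Hist1h1c had 128, 125, 114 and 119 CPM outside the cycle and 305, 263, 227 and 170 CPM within it (0.99, SE 0.10). Hist1h1d rose more, from a mean of 37.4 ± 8.68 to 191 ± 25.8 CPM (SD, n = 4 libraries; 2.38, SE 0.11). In all 6 linker genes but Hist1h1t, every library was higher in cycling cells; Hist1h1t had no UMI in the cycling cells of Control replicate 2.

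The H3 genes include Hist1h3b and Hist1h3g, whose place among the largest changes follows from how they became members, as said above, and Hist1h3c, which had 73 UMIs in non-cycling cells. Hist1h3b had 19.8, 11.4, 18.1 and 14.0 CPM in cycling cells, listed in the order Control replicates 1 and 2, cKO replicates 1 and 2, and a single UMI in all non-cycling cells, in cKO replicate 2; its fitted log2 change was 9.79 (SE 0.68). Over the 4 libraries pooled it had 50 cycling UMIs, a ratio of levels of 1815 with an exact 95% counting interval of 311 to 73124. Hist1h3g had 9.88, 9.79, 6.78 and 4.01 CPM against 1 non-cycling UMI, in Control replicate 1 (8.71, SE 0.87; pooled ratio 871, counting interval 142 to 35836). With 1 non-cycling UMI each, the fitted changes depend on the small count added by the fit, and the intervals cover counting error only. Hist1h3c had 207, 173, 154 and 112 CPM in cycling cells and 0.673, 1.01, 0.649 and 0.460 CPM outside, so the groups were far apart in every library (7.88, SE 0.18). Hist1h3i (4.69) and Hist1h3f (3.36) completed the cycle-bound H3 genes. Hist1h3a, Hist1h3d, Hist1h3e, Hist2h3c1 and Hist2h3c2 rose by 0.97 to 2.00 on the log2 scale, and Hist2h3b was not called (1.53, adjusted p = 0.0564 by edgeR).

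Among the core dimer genes, 8 H2A and 7 H2B members were cycle-bound. They include Hist1h2ag and Hist1h2bp, whose class follows from how they became members, as said above. Hist1h2af, an H2A gene, had 27.7, 31.0, 29.4 and 34.1 CPM in cycling cells and 0.103 to 0.289 CPM outside (7.26, SE 0.41). Hist1h2bm, an H2B gene, had 59.3, 44.1, 47.5 and 60.2 CPM against 0.489 to 0.962 CPM (6.31, SE 0.30). The spread of these values over libraries was small beside the difference. Hist2h2ac, the member just inside the 8-fold limit, stood out by its level outside the cycle, 33.1 ± 4.80 CPM, and reached 282 ± 39.9 CPM within it (3.11, SE 0.10). Hist1h4b lay just outside the limit (2.93, SE 0.73) at 4.45 ± 3.36 against 0.502 ± 0.211 CPM. Hist1h2ac was cycle-raised, at 63.6, 77.6, 39.9 and 35.8 CPM in non-cycling and 160, 196, 54.2 and 98.3 CPM in cycling cells (1.18, SE 0.12, adjusted p = 1.38e-22 by edgeR). It was higher in the cycling cells of all 4 libraries.

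Some members did not rise in cycling cells. Hist1h2bc had 109, 104, 99.7 and 108 CPM in non-cycling cells, with Control and cKO libraries overlapping, and 169, 70.2, 58.8 and 52.1 CPM in cycling cells (-0.24, SE 0.12, adjusted p = 0.123 by edgeR). It was higher in cycling cells in Control replicate 1 alone, and without that library the change was -0.76 (adjusted p = 1.32e-06). Hist4h4, an H4 gene outside the large chromosome 13 cluster, was the member called lower, at 72.5, 70.4, 63.9 and 52.3 CPM outside and 58.3, 80.0, 35.0 and 24.1 CPM within the cycle (-0.41, SE 0.14, adjusted p = 0.0152); the call was lost without cKO replicate 1 (-0.25), without cKO replicate 2 (-0.30), by DESeq2 (-0.40) and with thinned cells (-0.78). Hist3h2a, at 45.4 ± 7.26 against 37.1 ± 13.5 CPM, was not called (-0.18, adjusted p = 0.426 by edgeR). Hist1h4c, Hist1h4j, Hist1h4m, Hist1h2ao and Hist2h3b were not called either, at fitted changes of 0.52 to 1.86 and, Hist1h4c apart, under 3.00 CPM in cycling cells. The H4 genes were thus the least cycle-bound type, with 1 of 12 (Hist1h4k) cycle-bound by class. Of the rest, 6 were cycle-raised, 3 were not called, 1 fell and 1 was not tested. Hist1h4k had under 20 UMIs in non-cycling cells, so its class follows from how it became a member. The second most abundant member outside the cycle was an H4 gene, Hist1h4d, at 159, 249, 150 and 163 CPM, rising to 642, 725, 548 and 401 CPM (1.70, SE 0.10).

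**Figure D2:**
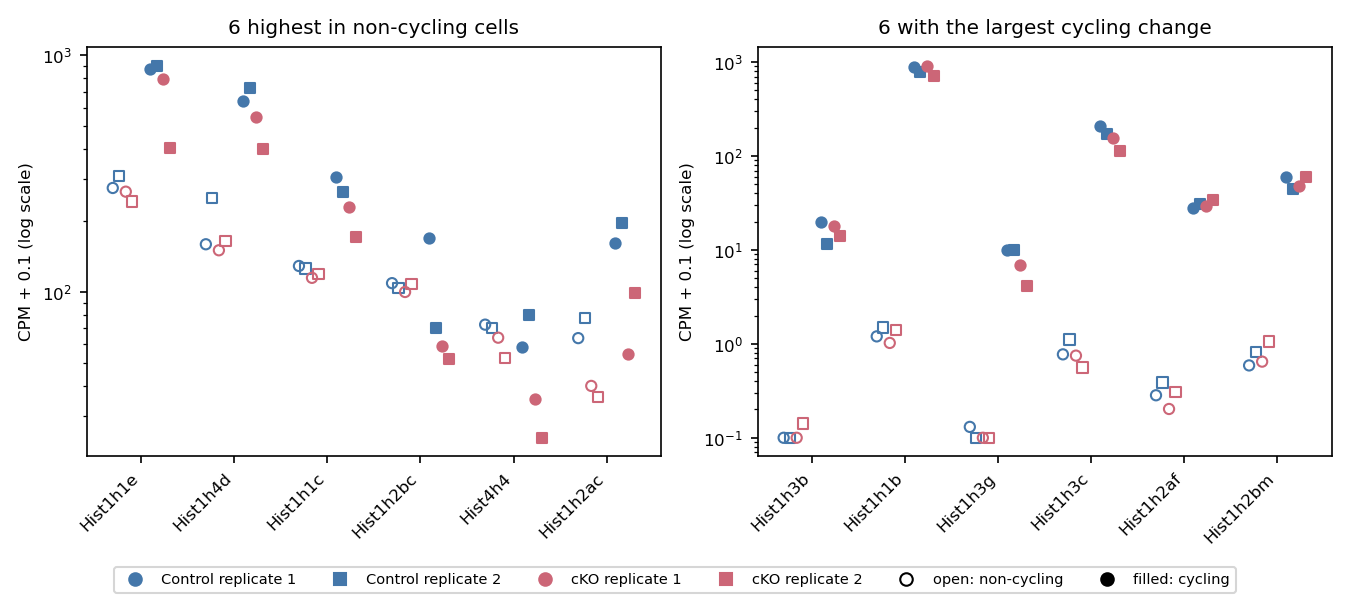
CPM + 0.1 (log scale) in each library for the 6 members with the highest level in non-cycling cells (left) and the 6 with the largest cycling change (right); open symbols are non-cycling and filled symbols cycling cells, blue Control and red cKO. On the right all filled symbols lie above all open symbols of the same gene, while on the left the 2 kinds of symbol overlap for Hist1h2bc, Hist4h4 and, across libraries, Hist1h2ac; Hist1h2ac is lower in both red libraries than in both blue ones in either cell group.

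Because droplets also capture free RNA, the same genes were read in barcodes of at most 100 UMIs. Hist1h1b had 10.6 ± 4.46 CPM there, against 1.18 CPM in non-cycling cells. Free RNA could therefore supply at most 9.13% and 11.3% of the non-cycling UMIs in Control replicates 1 and 2 and 6.57% and 31.9% in cKO replicates 1 and 2, if it had the same makeup in the cells. At those shares it could hold at most 3.84, 5.37, 1.62 and 7.78 CPM of Hist1h2ac, in the same order. These lay under the 35.8 to 77.6 CPM measured, and the limit was highest in cKO replicate 2, the library at 35.8 CPM. In that library free RNA could hold up to 62.6 CPM of Hist1h1e and 39.1 CPM of Hist1h1c, beside the non-cycling levels given above. For the cycle-bound genes near 1 CPM outside the cycle, such as Hist1h3c (0.698 against 2.44 CPM in free RNA), the non-cycling level lay under that of free RNA and is not read as expression.

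Annotated transcript ends differed between the classes. The median annotated 3′ UTR was 66 bases in the 24 cycle-bound and 398.5 bases in the 26 cycle-raised members, and 4 against 18 of them had one of at least 150 bases. Of the cycle-bound members 8 are annotated with no 3′ UTR at all, as are 2 of the cycle-raised; among the others the medians were 91.5 and 422 bases. An AATAAA letter run, the usual polyadenylation signal, was present in the annotated 3′ UTR of 3 cycle-bound and 11 cycle-raised members. It was absent from Hist1h1e and Hist1h4d, the most abundant members outside the cycle, and present in the cycle-bound Hist1h2bh, Hist1h1t and Hist1h2bp. For 6 cycle-bound members the class follows from how they became members, as said above. These are Hist1h1t (230 bases), Hist1h2bp (150), Hist1h3b (96), Hist1h3g (95), Hist1h2ag (75) and Hist1h4k (0). The contrast between classes was not recomputed without these 6. The members not called or lower in cycling cells include Hist4h4 (2515 bases), Hist3h2a (1700) and Hist1h2bc (742). Short and long ends overlapped between the classes: Hist1h2bh, with 1258 bases, was cycle-bound (3.63), and Hist1h3a, with 90 bases, was cycle-raised (0.97). These lengths describe the annotation, not the ends used in these cells.

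**Figure D3:**
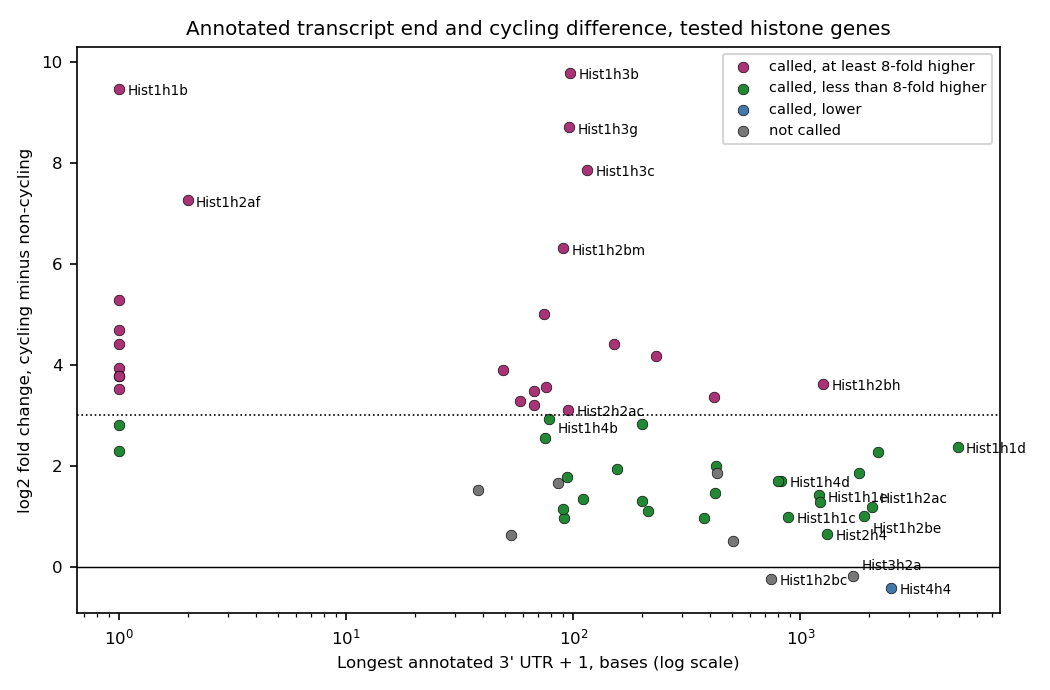
Longest annotated 3′ UTR plus 1 base (x axis, log scale) against the log2 change between cycling and non-cycling cells (y axis) for the 58 tested members, coloured by class; the dotted line is 8-fold. Points at the far left have no annotated 3′ UTR; Hist1h2bc, Hist3h2a and Hist4h4, under 0, have 742 to 2515 bases.

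Within the cycle, the 211 cells were divided by whether their UMIs of 20 S phase genes were at least as many as those of 15 G2/M genes. This put 73 in the S-leaning group; 18 cells lay within 2 UMIs of the divide, so the groups are ranges of a score. Of the 38 members with at least 50 cycling UMIs, 0 were higher in S-leaning cells in all 4 libraries, as 16% of all 6995 genes with as many cycling UMIs were, and 17 were lower in all 4, as 10.5% of those genes were. Hist1h3c had a mean of 64.0 CPM in S-leaning and 220 CPM in G2/M-leaning cells, and Hist1h1e 454 and 916 CPM. Hist1h2ac (99.0 and 135 CPM) and Hist1h1b (644 and 919 CPM) were each higher in S-leaning cells in 1 library, and Hist1h3a (34.3 and 25.9 CPM) in 3. These are values without a test. The gate on Top2a and Mki67, themselves genes of late S and G2/M, sets which S phase cells could enter.

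The genes that handle histones moved with the members in part. Of the 11 replacement variants, histones that are also made outside S phase, 9 were called higher in cycling cells and 0 lower (median log2 change 1.61). Cenpa, the H3 variant of centromeres, rose by 6.19 (SE 0.12) and H2afx, the H2A variant phosphorylated at DNA breaks, by 4.81 (SE 0.12). H3f3b, one of the H3.3 genes, had 3054 to 3503 CPM in the non-cycling and 2555 to 3448 CPM in the cycling cells of the 4 libraries, and was not called (-0.09, adjusted p = 0.575 by edgeR). Of 10 genes of histone pre-mRNA processing, 5 rose and 2 fell (median 0.43): Slbp, which encodes the stem-loop binding protein, rose by 1.14 (SE 0.11) from 54.7 to 64.8 CPM outside the cycle to 102 to 203 CPM within it, and Npat, the coactivator of histone transcription, by 0.80 (SE 0.18), while Lsm10 and Cpsf3 fell by 0.52 and 0.51. Of 18 histone chaperones 12 rose and 1 fell (median 0.74), led by Asf1b (5.39) and Chaf1a (4.37), which deposit H3 and H4 behind the replication fork. All 20 S phase genes (median 3.11) and all 15 G2/M genes (median 8.03) rose, the latter chosen because they mark the cells gated here.

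Non-cycling cells of at least 2000 UMIs were then divided by 4 known states of microglia, each called on cells thinned to 2000 UMIs, and members were compared between the cells of a state and the remaining cells. In cells with at least 3 of 12 genes of the neurodegenerative (MGnD) state, such as Clec7a and Itgax, 32 of the 43 members tested were lower at an adjusted p under 0.05, where 26.5% of all genes were lower, and 1 was higher, where 27.4% were. Hist1h1e had 122, 95.6, 122 and 96.7 CPM in MGnD-high cells of Control replicates 1 and 2 and cKO replicates 1 and 2, against 281, 332, 264 and 231 CPM in the other cells (-1.34, SE 0.07). Hist1h2ac had 42.4, 30.1, 24.1 and 14.5 CPM against 61.9, 82.7, 38.8 and 34.5 CPM (-0.91, SE 0.10). Both genes were lower in the state in all 4 libraries. Hist1h2bc was the member that rose, to 140, 115, 137 and 131 CPM from 89.6, 89.0, 82.8 and 94.4 CPM (0.57, SE 0.05). The members called lower ranged from Hist3h2a (-0.30) to Hist2h3b (-2.99), the latter at levels near 1 CPM. MGnD-high cells (647 and 442 in Control, 471 and 194 in cKO) were deeper, with medians of 10162 to 12738 UMIs against 5866 to 7210. Levels also differed between cells of different depth, which differ in state too: over all non-cycling microglia-like cells Hist1h1e had a mean of 435 CPM over the libraries in cells of 2000 to under 5000 UMIs and 191 CPM in those of 10000 and over, and Hist1h2ac 73.8 and 45.3 CPM, while Hist1h2bc had 94.5 and 104 CPM. With every cell thinned to 2000 UMIs, 20 of the 31 members still testable were lower in MGnD-high cells; the part of depth was not tested further.

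Hist1h2bc fell in immediate-early-high and heat-shock-high cells, where most members called were higher, and was not called in interferon-high cells (-0.11, adjusted p = 0.376 by edgeR). In cells with at least 4 of 8 immediate-early genes such as Fos and Egr1, 22 of 42 members were higher, where 21.1% of all genes were, and 2 lower, where 23% were. Hist1h2ac rose by 0.89 (SE 0.08) and Hist4h4 by 0.92 (SE 0.07), each in all 4 libraries, and Hist1h2bc fell (-0.40, SE 0.05). The other member called lower was Hist1h1b (-1.03), whose level near 1 CPM lay under that of free RNA and was higher in the state in Control replicate 2, so it is not read as a fall in expression. This state held most cells, 1921 to 3097 per library against 233 to 579 others. The others were deeper in each library, with medians of 7116.5 to 8678 UMIs against 6155 to 7321 in the state. Over the 6 alternatives, thinning among them, 17 to 23 members were called higher, and the part of depth was not tested further. In cells with at least 2 UMIs of the heat-shock genes Hspa1a, Hspa1b and Dnajb1, 12 of 45 members were higher, where 7.47% of all genes were, and 1 lower, where 10.5% were; the rises were small (0.17 for Hist1h2ac, higher in 3 of 4 libraries, and 0.50 for Hist1h1a), and the member that fell was Hist1h2bc (-0.31, SE 0.04). Without Control replicate 1 the rises numbered 3, without Control replicate 2 they numbered 6, and without cKO replicate 1 they numbered 8; DESeq2 called 3, and with thinned cells 1 of 30 testable members was called. In interferon-high cells (at least 3 of 12 genes such as Ifit3), 5 of 46 members were lower, where 2.74% of all genes were, and 0 higher, where 6.19% were: Hist1h1e (-0.40), Hist1h3e (-0.39), Hist4h4 (-0.38), Hist1h4d (-0.26) and Hist1h1c (-0.25); without Control replicate 2 they numbered 3. Both immediate-early and heat-shock transcripts can be induced while tissue is dissociated, and their part in these values was not tested.

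**Figure D4:**
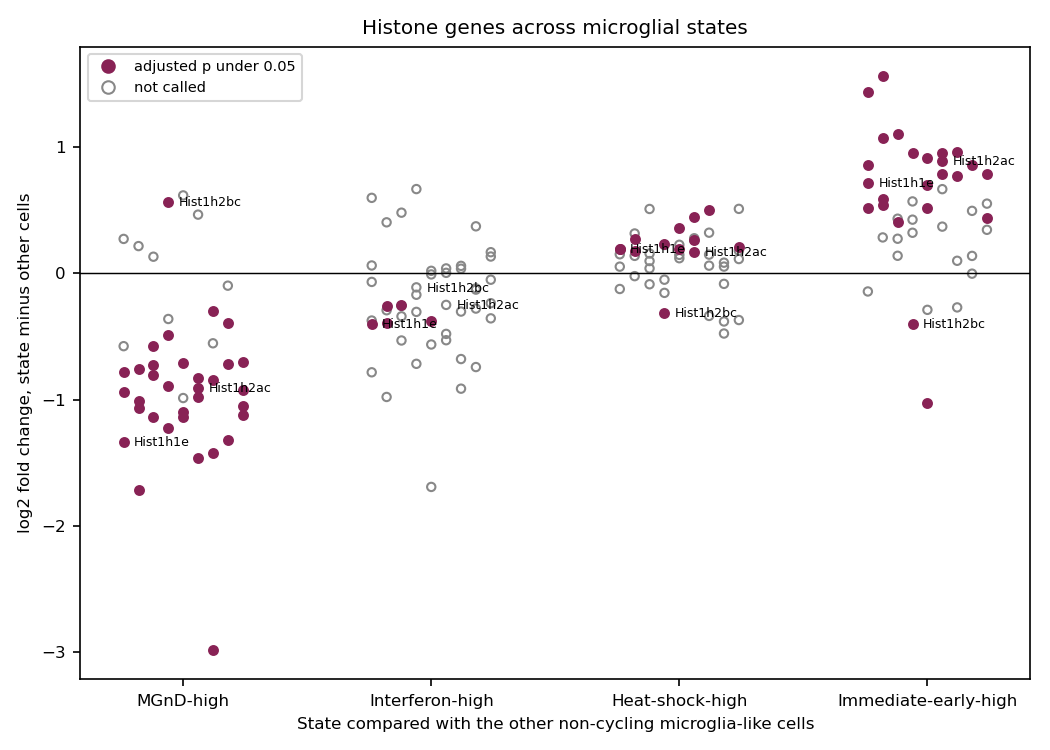
Log2 change of each tested member between the cells of a state and the remaining non-cycling microglia-like cells (y axis) for 4 states (x axis, points spread sideways for view); filled points passed an adjusted p of 0.05. Hist1h2bc is above 0 in MGnD-high cells and below 0 in heat-shock-high and immediate-early-high cells, opposite to Hist1h2ac and Hist1h1e in each of these 3.

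The study's own comparison, miR-155 cKO against Control, was made on summed UMIs of all microglia-like cells. Hist1h2ac was the member called. It had 65.2 and 80.3 CPM in Control replicates 1 and 2 and 39.8 and 36.5 CPM in cKO replicates 1 and 2, so both cKO libraries lay under both Control libraries. Its log2 change was -0.93 (SE 0.11, adjusted p = 0.0452 by edgeR), 1 of 4 genes called in either direction among 13356 (0.0299%). The adjusted p lay near the threshold and passed it or not with small changes: it was 0.101 with the replicate block, 0.0884 without MGnD-high cells (-1.01) and 0.131 without cKO replicate 2 (-0.87). Without Control replicate 1, the library at odds with its sex label, the change was -1.08. The remaining Control library then stood alone, so no spread among Control libraries was measured. As fewer cells of a kind and less RNA per cell cannot be told apart in sums, the same gene was read in subgroups of the same libraries. Both cKO libraries were under both Control libraries in MGnD-high and other cells, as given above, in heat-shock-high cells (72.2 and 76.3 against 45.4 and 38.2 CPM), and in the non-cycling cells of 2000 to under 5000 UMIs (87.9 and 125 against 39.0 and 43.7 CPM), of 5000 to under 10000 UMIs (64.7 and 87.0 against 41.4 and 38.8 CPM) and of 10000 and over (55.6 and 52.6 against 38.9 and 34.0 CPM). These subgroups share their libraries and are not separate evidence. Heat-shock-high cells were more numerous in cKO replicate 2 (970 against 1505 others) than in the other libraries (776, 605 and 296 against 2541, 3071 and 2156 in cKO replicate 1 and Control replicates 1 and 2); without them the change was -0.96 (adjusted p = 0.0272).

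The genotype difference in Hist1h2ac was of like size outside dividing cells. In non-cycling cells it was -0.89 (SE 0.11), at 62.3 and 75.9 CPM in Control and 39.3 and 35.0 CPM in cKO, with an adjusted p of 0.0526 by edgeR; edgeR called 0 of 13220 genes (0%) in that comparison, 950 genes had an unadjusted p under 0.05, and DESeq2 called 8 of the 918 to which it gave an adjusted p. With the replicate block the non-cycling change of Hist1h2ac was -0.89 at an adjusted p of 4.32e-05. In cycling cells it was -1.25 (SE 0.26), at 165 and 204 against 56.8 and 104 CPM, and did not pass (adjusted p = 0.220), where 5 of 7851 genes (0.0637%) were called. Without cKO replicate 2 that change was -1.68, with cKO replicate 1 alone in its group.

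Most other members were also lower in cKO libraries, by amounts that did not pass the test one by one. Of 53 members tested in microglia-like cells, 48 had a log2 change under 0 (median -0.36), where 48.2% of all genes did (median 0.01), and 21 had an unadjusted p under 0.05, as 1014 of all 13356 genes did. In 30 of the 53 both cKO libraries lay under both Control libraries, against 19.7% of all genes tested, and in 1, Hist3h2a, both lay above. After Hist1h2ac the smallest p-values belonged to Hist1h2be (-0.36, SE 0.09; 41.2 and 45.1 against 32.2 and 35.1 CPM), Hist2h4 (-0.46, SE 0.11; 23.1 and 27.4 against 17.3 and 19.3 CPM) and Hist1h1d (-0.46, SE 0.11; 42.3 and 52.3 against 36.3 and 32.1 CPM), each at an adjusted p of 0.489. Hist1h1e (-0.23, adjusted p = 0.659), Hist1h4d (-0.40, 0.643; -0.07 without Control replicate 2), Hist1h1c (-0.14, 0.695) and Hist4h4 (-0.31, 0.618) were not called, although in each both cKO libraries were under both Control libraries. Hist3h2a had 39.3 and 39.6 CPM in Control and 43.7 and 54.1 CPM in cKO (0.31, adjusted p = 0.631). Without Control replicate 1, 9 members were called lower, Hist1h1d (-0.62), Hist1h4d (-0.67) and Hist2h4 (-0.59) among them, of 73 genes called lower among 13526, the remaining Control library standing alone and assumed to vary like the cKO libraries. Without cKO replicate 1, 6 were called lower, among them Hist4h4 (-0.46), and 1 higher, of 128 and 103 genes called lower and higher among 13495. Without Control replicate 2, 2 were lower, of 45 genes among 13788, and without cKO replicate 2 edgeR called 0 members and 2 genes among 13761. The cycle-bound members had a median of -0.25 and the remaining members one of -0.36. Cycling cells held 3.14% and 2.71% of UMIs in Control and 2.77% and 1.87% in cKO replicates 1 and 2, and the G2/M genes, also lower in 15 of 15, had a median of -0.33 with 0 called.

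**Figure D5:**
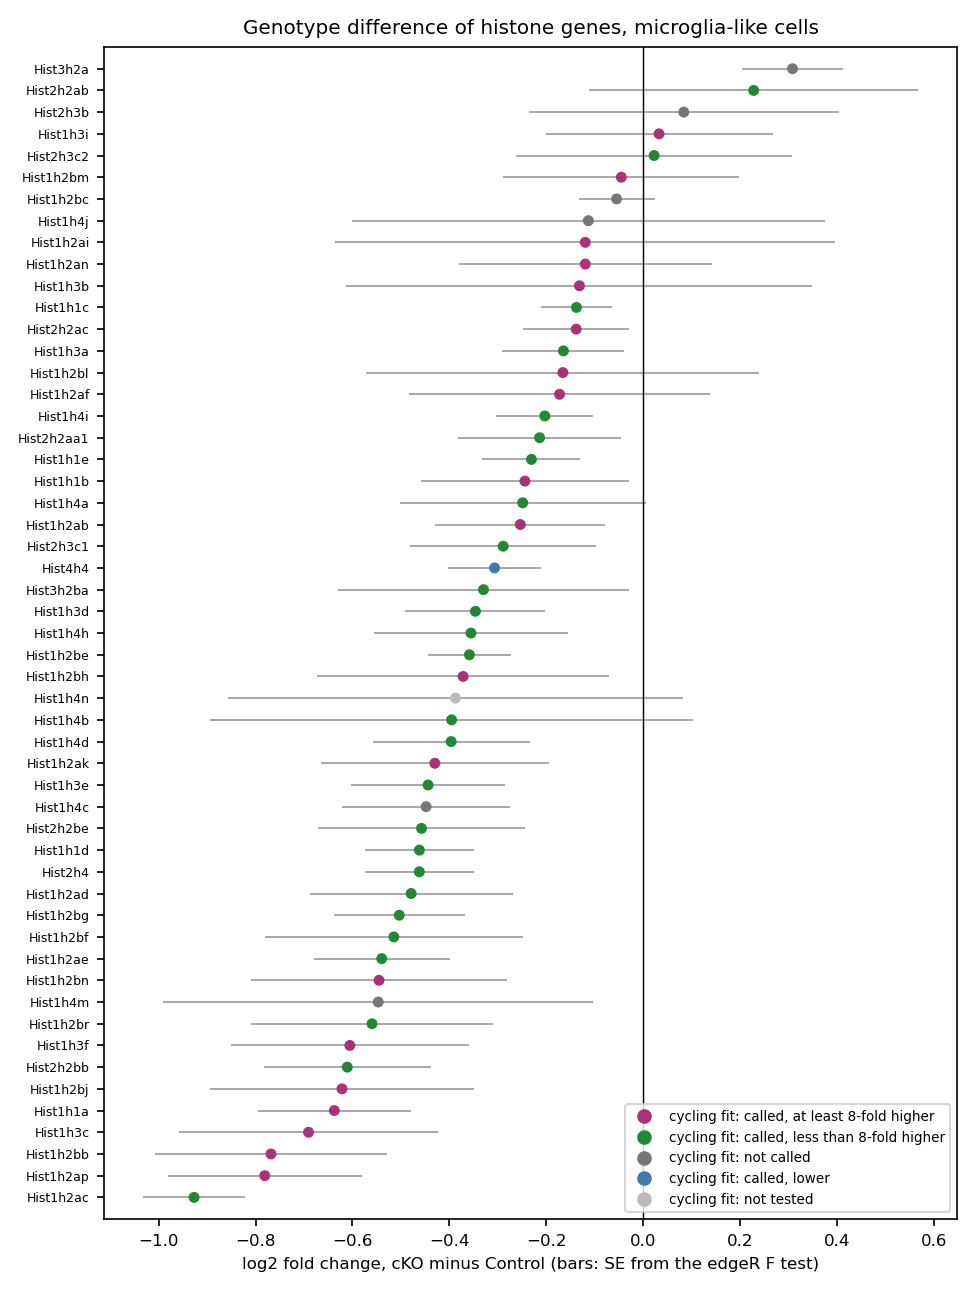
Log2 change between cKO and Control libraries (x axis; bars are standard errors from the edgeR test) for the 53 members tested in microglia-like cells, ordered by change and coloured by their class in the cycling comparison. Hist1h2ac lies lowest at -0.93 and Hist3h2a highest at 0.31; 48 of 53 lie under 0.

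Of the head-to-head neighbours, some had changes alike in sign and others not. There are 10 such pairs among the members, with starts at most 660 bases apart. Hist1h2bc had 108 and 101 CPM in Control and 97.6 and 104 CPM in cKO (-0.05, SE 0.08, adjusted p = 0.899), beside -0.93 for Hist1h2ac from the same intergenic window; the pair also differed in sign in the cycling, MGnD, heat-shock and immediate-early comparisons, but not within cycling cells, where both were lower in both cKO libraries (-1.25 and -1.13, neither called). The difference between the neighbours was not itself tested. In the pair Hist1h2ae and Hist1h2bg the changes were alike in sign in each of those comparisons (genotype -0.54 and -0.50, cycling 2.83 and 1.31, MGnD -1.23 and -0.81), and in Hist1h2ak and Hist1h2bn in genotype (-0.43 and -0.55), cycling (3.94 and 3.78) and MGnD (-0.73 and -0.89). Hist2h2ac and Hist2h2be were both raised in cycling cells (3.11 and 2.28), while in MGnD-high cells Hist2h2ac fell (-0.78) and Hist2h2be was not called (0.22, adjusted p = 0.355).

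A test of the interaction asked whether the cycling difference itself differed between genotypes. It called 7 of 13035 genes (0.0537%), and 1 of the 58 members tested, Hist1h2bc (-1.07, SE 0.24, adjusted p = 0.0174 by edgeR): its level in cycling cells was 169 and 70.2 CPM in Control and 58.8 and 52.1 CPM in cKO, while outside the cycle it was 109 and 104 against 99.7 and 108 CPM. The high value was that of Control replicate 1, and without that library the interaction was -0.32 and not called; it was also not called without cKO replicate 1 (-1.24), without cKO replicate 2 (-0.95) or with cycling cells taken at 1 gate UMI (-0.73). For Hist1h2ac the interaction was -0.41 (SE 0.23, adjusted p = 0.997).

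Several members cannot be counted apart with certainty. In the GENCODE M21 annotation Hist1h1e overlaps in part the long gene model of Hist1h2be on the same strand. The last 100 transcript bases of Hist1h1e, Hist1h3e, Hist1h3f, Hist1h2ap, Hist1h2bn, Hist1h2br, Hist1h4m and Hist2h2aa1 also occur in another gene of the family. The other genes include Hist1h2be for Hist1h1e, Hist1h2bc and Hist1h2bj for Hist1h2br, and Hist1h2bf and Hist1h2bh for Hist1h2bn. The own last 100 bases of Hist1h2bc and Hist1h2be were not found in another gene of the family. Hist3h2a overlaps Trim17 on the same strand. Hist1h2ac shares no such end, but a small rRNA model, Gm24991, lies within it on the same strand. The H4 genes are close copies of one another, so their split between genes is uncertain.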

How the data were processed

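Single-cell RNA libraries of sorted brain myeloid cells were analysed from the UMI counts deposited by the authors, which are whole numbers per the file headers, cover all barcodes and are not normalized; Cell Ranger 4.0.0 and the build mm10 are named in the submitters' processing notes. The deposited barcode and gene tables hold names and no measurement. The members and gene lists were chosen with earlier results of these data known. Barcodes were kept at 1000 UMIs, 500 genes and at most 10% mitochondrial UMIs; the 401 with the highest Scrublet scores were removed at a preset rate of 0.8% per 1000 cells, since the caller's own threshold marked 2. Cells were clustered (scanpy 1.11.5, leidenalg 0.10.2; 2000 variable genes without the histone family, 30 components) and clusters named from preset markers. Raw counts were summed per library and class and tested with edgeR 4.0.16 (TMM, filterByExpr, quasi-likelihood F test, two-sided, Benjamini-Hochberg over all genes tested, threshold 0.05); each SE is the log2 change divided by the square root of F. DESeq2 1.42.0, leave-one-out fits, other gates, thinning, a replicate block and no count filter were alternatives, and the edgeR fits were tested on simulated data. With 2 libraries per group, p-values measure the spread between these libraries. Totals were 33130800 to 47574406 UMIs per library. Named members were Hist1h2ac and its neighbour, the 6 highest outside the cycle, the 6 largest cycling changes, the 4 smallest genotype p-values and those beside the 8-fold limit; others were named as examples after their values were seen.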

Additional observations from a re-analysis of the deposited data

Results flagged for a closer look

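The cycling difference of Hist1h2bc differed between genotypes by the interaction test of edgeR (-1.07 on the log2 scale, adjusted p = 0.0174). Its cycling cells had 169 CPM in Control replicate 1 against 52.1 to 70.2 CPM in the other 3 libraries, and without that library, which also goes against its sex label, the difference was -0.32 and not called. It was also not called without cKO replicate 1 (-1.24), without cKO replicate 2 (-0.95) or with cycling cells taken at 1 UMI of Top2a and Mki67 (-0.73).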

How the results depend on the processing

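The 32 results were recomputed under 291 alternatives in all; 251 kept direction and side of the threshold, 17 newly passed it, 12 no longer passed, 9 counts moved by over 1.5 times and 2 changed sign; causes were not tested. The members higher in cycling cells numbered 45 to 51 in 10 alternatives and 27 with thinned cells, where 44 were testable. Thinning also gave 20 members lower in MGnD-high cells, 2 lower in interferon-high and 1 higher in heat-shock-high cells, and DESeq2 gave 3 and 3 for the last pair; leaving out 1 library gave 3 to 4 and 3 to 10. The sign of Hist1h2bc changed in the cycling comparison with thinned cells (0.032) and in the genotype comparison without heat-shock-high cells (0.0017), both near 0. For Hist1h2ac in microglia-like cells the genotype change lost its call with all barcodes (-0.94), without MGnD-high cells (-1.01), and ranged from -1.08 to -0.77 leaving out 1 library; its adjusted p ranged from 1.5e-21 without a count filter to 0.131. DESeq2 gave -0.93, and its filter left the gene without an adjusted p. In non-cycling cells leaving out 1 library gave -1.03 to -0.74, and in cycling cells -1.68 to -0.82, with -1.26 at 1 gate UMI. The interaction of Hist1h2bc was -0.73 and no longer called at 1 gate UMI and -1.50 to -0.32 leaving out 1 library. Genes called between genotypes in microglia-like cells numbered 4, against 0 with all barcodes, 14 by DESeq2, 345 without a count filter and 2 to 231 leaving out 1 library. The replicate numbers are not stated to pair animals, and the deviations of the libraries numbered 1 correlated at -0.09 over 13356 genes. With the replicate block Hist1h2ac changed by -0.92 (adjusted p = 0.101) in microglia-like cells and by -0.89 (4.32e-05) in non-cycling cells, and the genes called numbered 2 and 79, against 4 and 0.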
